A study of Bombyx mori with 9 samples.

Results

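Among the 14124 genes in the authors' table of normalized expression, 6 were set apart low in the silk glands of the silkworm strain DMMMSU119. The members were chosen by the deposited values themselves, which are log2(normalized count + 1). A gene was taken when its lowest value in the 3 LAT51 and 3 MO204 libraries was at least 5 and lay at least 2 above its highest value in the 3 DMMMSU119 libraries. Genes whose IDs start with Hsp or CP were left out, which removed 1 gene, the cuticular protein gene CPR122. Since this difference chose the members, their levels in DMMMSU119 against the other strains are given as a description, without a test.

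The libraries came from whole silk glands of *Bombyx mori* larvae on day 3 of instar 5, with 1 larva per library and 3 per strain. DMMMSU119, which the rearing facilities had classified as performing poorly, and the priority strain MO204 were reared at TCMO (Misamis Oriental). The priority strain LAT51 was reared at CAR (Benguet), the cooler of the sites. MO204 therefore shares the site of DMMMSU119, while site and strain cannot be told apart for LAT51.

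The silk gland is a paired secretory organ whose posterior part makes fibroin and whose middle part makes the sericins that glue the fibroin fibre. Its cells stop dividing in the embryo and grow by endoreplication, that is by copying their DNA without dividing. In the last larval instar they turn to the mass production of silk proteins. The 6 members are LOC101742153, LOC119629869, LOC101746950, LOC119630586, LOC101736607 and LOC101740127. The files pair none of these IDs with a gene name or function, so no role is given for them. In a RefSeq gene table of another assembly, ASM3026992v2, 5 of them are listed as protein-coding genes, and LOC119629869 was not matched.

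The gene counts summed to 4527847 to 11641130 per library. The paper reports, from a STAR alignment of part of the libraries, that DMMMSU119 reads mapped to multiple loci more often than LAT51 and MO204 reads. Whether this bears on the members was not tested. The gland-specific genes were present in all libraries: the silk protein genes FIBH, Fib-l, P25, Ser1 (LOC101740082), Ser2 and Ser3 took 24.4% to 36.0% of the counts in DMMMSU119, 12.3% to 19.1% in LAT51 and 14.5% to 19.6% in MO204. The choice of scaling bears on levels in DMMMSU119. With library size alone the median log2 fold change over the 7610 genes tested was -1.40 for DMMMSU119 over the mean of the other strains, against -0.01 with TMM factors (edgeR's trimmed mean of M-values). Markers of other tissues also differed between the strains. Levels are given in CPM, that is counts over the product of library total and TMM factor, on a fixed scale. The TMM factor was 0.42 to 0.59 in DMMMSU119, 1.26 to 1.53 in LAT51 and 1.33 to 1.53 in MO204. Equal CPM thus stands for a smaller share of the counts in DMMMSU119. The 8 fat body genes were Sp1 and Sp2 (storage proteins), VG (yolk protein precursor) and the lipoprotein genes Lp-c6, Lp-c12, Lp-c19, Lp-c21 and Lp-c23. Their summed level was 3464 to 84468 CPM in DMMMSU119, 13.8 to 145 CPM in LAT51 and 61.8 to 684 CPM in MO204. The library DMMMSU-0 stood apart, with 84468 CPM of the fat body list and 6761 CPM of the 4 muscle genes, against 22.9 (DMMMSU-2) and 17.7 CPM (DMMMSU-4) of the muscle genes in the rest of the strain. MO204-3, at 488 CPM, was the highest library outside DMMMSU119 for the muscle genes. The part of these markers in the results below was not tested. In whole tissue, fewer cells that express a gene cannot be told apart from less RNA per cell.

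LOC101742153 was the gene furthest apart. Its values in DMMMSU119 were 3.92 (DMMMSU-0), 1.48 (DMMMSU-2) and 3.55 (DMMMSU-4), against 8.45, 10.20 and 8.38 in LAT51-1, LAT51-2 and LAT51-4 and 8.40, 8.41 and 8.20 in MO204-1, MO204-3 and MO204-4. The gap between the groups was 4.28, the only one above 3. As read counts, the DMMMSU119 libraries held 7, 1 and 8, while the LAT51 libraries held 504, 2518 and 259 and the MO204 libraries 669, 298 and 380. The single read of DMMMSU-2 has an exact Poisson interval (95%) of 0.0253 to 5.57 reads, and this and the intervals below cover counting error only. In CPM the level was 1.22 ± 0.881 in DMMMSU119, 86.0 ± 66.2 in LAT51 and 45.6 ± 4.09 in MO204 (SD, n = 3 each), or 70.2-fold lower in DMMMSU119 than in LAT51 and 37.3-fold lower than in MO204. The wide SD of LAT51 came from LAT51-2 at 162 CPM, while the other 2 LAT51 libraries, at 50.2 and 45.3 CPM, lay near the MO204 values.

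LOC101746950 had the highest read counts of the members. Its deposited values were 7.94, 4.60 and 6.43 in DMMMSU119, 11.07, 12.82 and 11.99 in LAT51 and 10.47, 10.21 and 10.17 in MO204. DMMMSU-0 was the highest and DMMMSU-2 the lowest library of the strain, 3.34 apart, the widest range of any member in DMMMSU119. The counts were 121, 13 and 64 in DMMMSU119, 3100, 15475 and 3153 in LAT51 and 2807, 1039 and 1496 in MO204. The mean level was 16.3 ± 15.8 CPM in DMMMSU119, 619 ± 349 CPM in LAT51 and 176 ± 20.3 CPM in MO204 (SD, n = 3 each). That was 38.1-fold lower in DMMMSU119 than in LAT51 and 10.9-fold lower than in MO204. The 3 strains did not overlap for this gene: every LAT51 library was above every MO204 library, and these were above every DMMMSU119 library.

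LOC119630586 showed the same order of strains but was even among the DMMMSU119 larvae. It had 4.87, 4.60 and 4.48 in DMMMSU119, 9.86, 8.97 and 10.04 in LAT51 and 8.81, 7.91 and 7.08 in MO204. The DMMMSU119 libraries lay within 0.39 of each other, the narrowest range of the members, on 14, 13 and 16 reads. MO204 spread further, over 1.73, with MO204-4 at 174 reads as the library that set the gap of 2.21. The mean level was 3.35 ± 0.499 CPM in DMMMSU119, 115 ± 40.2 CPM in LAT51 and 38.7 ± 22.6 CPM in MO204 (SD, n = 3 each), which is 34.4-fold lower in DMMMSU119 than in LAT51 and 11.5-fold lower than in MO204.

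LOC119629869, the ID without a match in the gene table, had 3.92, 3.02 and 4.64 in DMMMSU119, 7.12, 8.36 and 8.67 in LAT51 and 7.32, 7.90 and 7.14 in MO204. Its gap was 2.47, between DMMMSU-4 and LAT51-1. LAT51 and MO204 overlapped. The mean level was 2.08 ± 1.17 CPM in DMMMSU119, 40.1 ± 18.2 CPM in LAT51 and 25.3 ± 7.49 CPM in MO204 (SD, n = 3 each).

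The remaining 2 members lay just inside the threshold. LOC101736607 had 2.82, 3.31 and 3.17 in DMMMSU119, 6.80, 5.61 and 6.16 in LAT51 and 5.35, 5.71 and 5.65 in MO204. Its gap of 2.04 rests on 3, 5 and 6 reads in DMMMSU119. LOC101740127 had 3.47, 2.67 and 3.55 in DMMMSU119, 6.42, 5.80 and 5.56 in LAT51 and 6.97, 6.79 and 6.57 in MO204, with a gap of 2.02 and 5, 3 and 8 reads in DMMMSU119. With 1 read more in the highest DMMMSU119 library, the gap would be 1.80 for LOC101736607 and 1.86 for LOC101740127, and neither gene would be a member. The gaps of the other members would stay at 2.11 or above. The mean level of LOC101736607 was 1.06 ± 0.201 CPM in DMMMSU119, 10.7 ± 4.78 CPM in LAT51 and 6.61 ± 0.882 CPM in MO204, and that of LOC101740127 was 1.20 ± 0.404 CPM in DMMMSU119, 8.67 ± 3.09 CPM in LAT51 and 15.4 ± 2.21 CPM in MO204 (SD, n = 3 each).

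**Figure D1:**
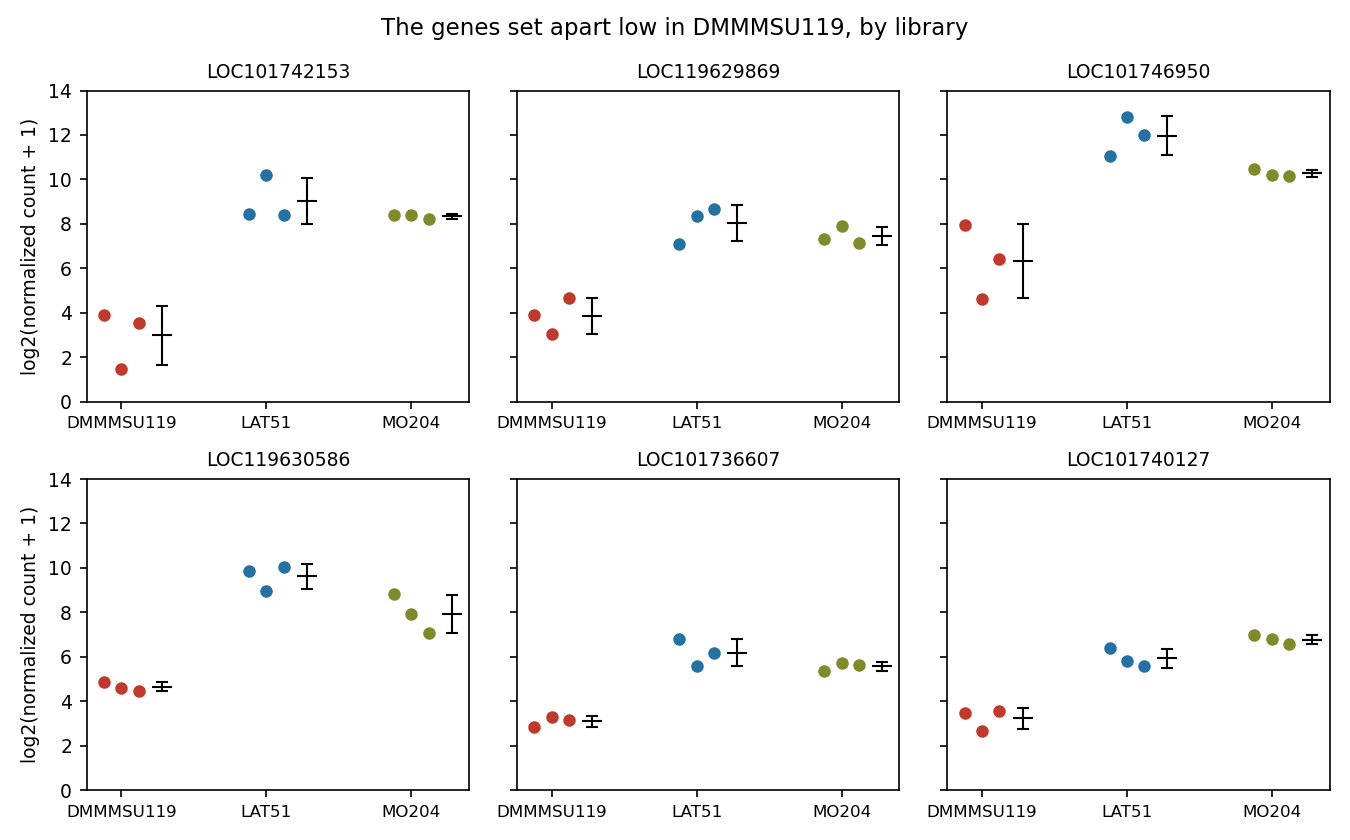
Deposited log2(normalized count + 1) of the 6 members in each library, with 1 panel per gene, points for libraries (left to right in the order of their replicate numbers) and bars for the mean ± SD of each strain (n = 3). In each panel the 3 DMMMSU119 points lie below all others, by 4.28 for LOC101742153 and by 2.02 to 2.47 for the rest.

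Every DMMMSU119 library held at least 1 read of each member. Whether the lowest of these counts stand for expression was not tested. Over the 3 libraries together, the sums were 16 reads for LOC101742153 (exact Poisson interval 9.15 to 26.0), 29 for LOC119629869 (19.4 to 41.6), 198 for LOC101746950 (171 to 228), 43 for LOC119630586 (31.1 to 57.9), 14 for LOC101736607 (7.65 to 23.5) and 16 for LOC101740127 (9.15 to 26.0). DMMMSU-2 was the lowest of the strain for 4 of the 6 members, and DMMMSU-0 was the highest for 3.

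Genes set apart to this degree were few. Of the 4275 genes whose lowest LAT51 or MO204 value was at least 5, 906 (21.2%) had all 3 DMMMSU119 values below all others by any margin, 73 by at least 1 and 16 by at least 1.5, with CPR122 and the 6 members among these. CPR122, one of the cuticular proteins with a Rebers-Riddiford motif, had 9.08 ± 6.35 CPM in DMMMSU119, 120 ± 19.7 CPM in LAT51 and 122 ± 19.9 CPM in MO204 (SD, n = 3 each), with a gap of 2.61. The mirrored rule, with DMMMSU119 at 5 or above and at least 2 above every other library, was met by 88 genes. With library size alone in place of size factors, the low side held 123 genes, the 6 members among them.

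**Figure D2:**
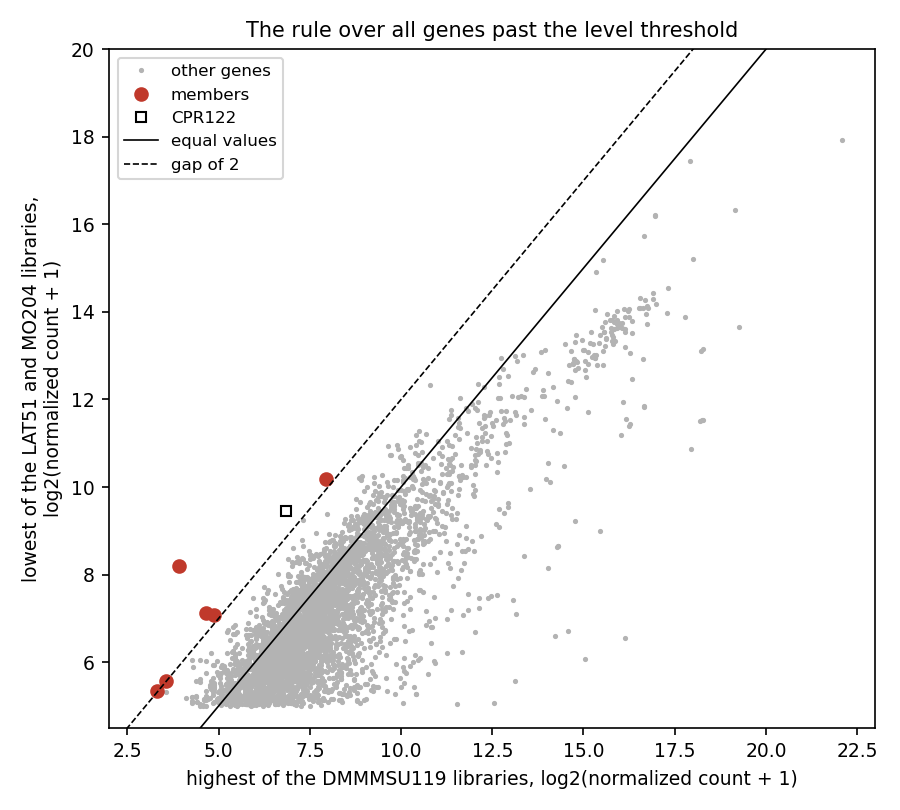
Highest DMMMSU119 value (horizontal) and lowest LAT51 or MO204 value (vertical), both as log2(normalized count + 1), for the 4275 genes past the level threshold of 5. The 6 members and CPR122 lie above the dashed line of a gap of 2, with LOC101742153 furthest from it, at 3.92 on the horizontal and 8.20 on the vertical axis.

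Just outside the gap stood LOC101744145, whose highest DMMMSU119 value of 7.30 was 1.94 below its lowest value in the other strains, 9.24 in LAT51-2. LOC101740744 followed with a gap of 1.78 and LOC733009 with 1.76. On the level threshold, 3 genes came closest from outside. LOC101742525 had a gap of 2.01 but a lowest value of 4.34. LOC101735771 and LOC101742634 had no read in any DMMMSU119 library, and their lowest values in the other strains were 3.88 and 3.32. These genes without a read in DMMMSU119 are therefore not members.

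The library DMMMSU-0 limited the number of members. Leaving it out raised the number to 31, while leaving out any other library gave 6 to 9. The members stay in the set by construction when a library is removed. Likewise, a gene can be added only where the library left out was its highest in DMMMSU119 or its lowest in LAT51 and MO204. The 25 genes added without DMMMSU-0 had gaps of -0.05 to 1.58 with it. Only 4 of the 25 carry a gene symbol. Pcna, the sliding clamp that holds DNA polymerase on its template, had 8.19 in DMMMSU-0 and 6.76 and 6.72 in the other DMMMSU119 larvae, against a lowest value of 8.91 in the other strains. Rpa1, a subunit of the replication protein A that coats single-stranded DNA, had 7.17 in DMMMSU-0 and 5.45 and 6.27 in the others, against a lowest value of 8.30. The chromatin protein gene Hmga had 6.04 in DMMMSU-0 and 4.60 and 4.64 in the others, with gaps of 0.77 with DMMMSU-0 and 2.16 without it. Fkbp45, of the FK506-binding proteins, had 9.89 in DMMMSU-0 and 8.05 and 8.36 in the others, with gaps of 1.08 and 2.60. Hmga and Fkbp45 were chosen after their values were seen.

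**Figure D3:**
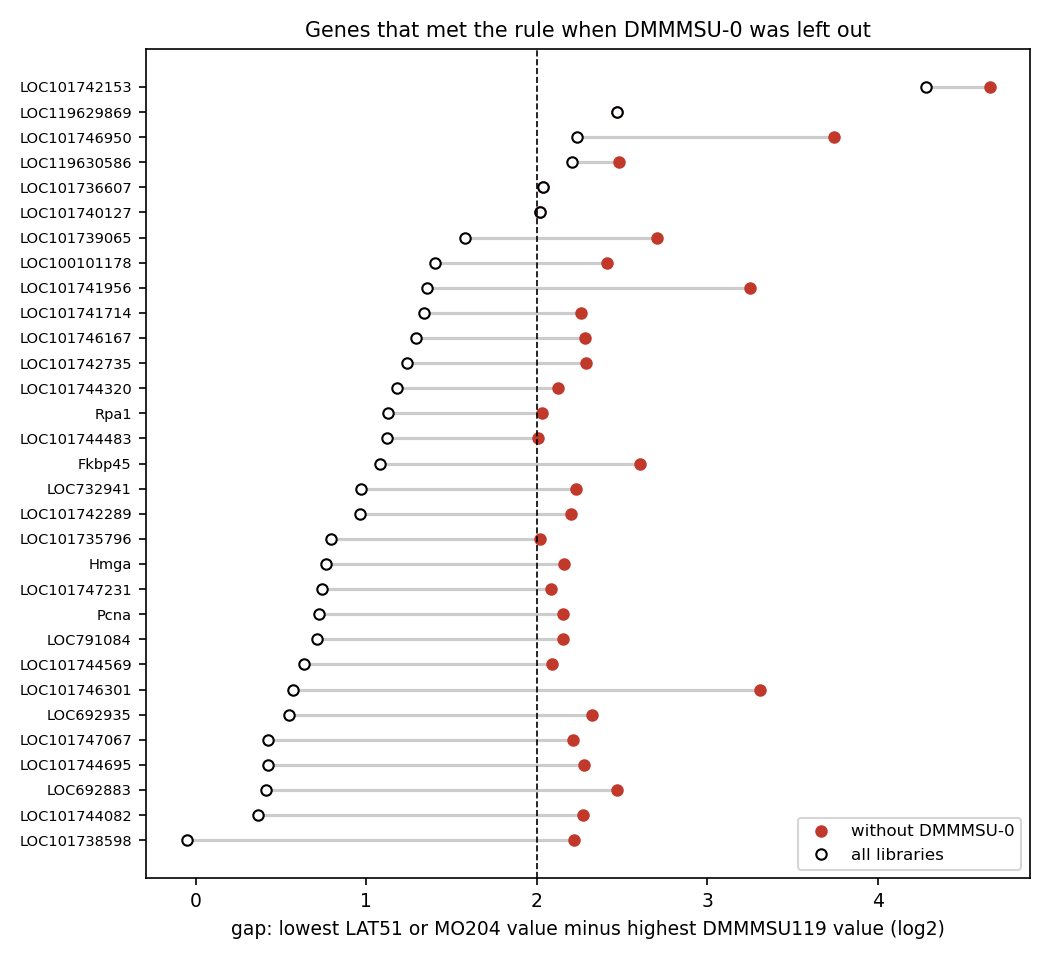
Gap between the lowest LAT51 or MO204 value and the highest DMMMSU119 value, in log2 units, for the 31 genes that met the rule without DMMMSU-0 (filled points), with the gap over all libraries as open points and the threshold of 2 as a dashed line. The 6 members, at the top, pass in both cases, and LOC119629869, LOC101736607 and LOC101740127 have equal gaps because DMMMSU-0 is not their highest DMMMSU119 library.

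The rule set a floor for LAT51 and MO204 but did not use the difference between them, so these strains were compared with edgeR's quasi-likelihood test over all 7610 genes tested. All 6 members passed the filter on low counts, which the floor of the rule in LAT51 and MO204 ensured in advance. None of them was called at an adjusted p under 0.1, where 3.07% of all tested genes were (1.51% higher and 1.56% lower in LAT51). At an unadjusted p under 0.05 there were 3 members. The share of all tested genes at that cut is not given here, so nothing is read from this count. Over the same genes, limma on the deposited values called 0 members and 215 of the 7610 genes tested. DESeq2's Wald test, with an adjusted p for 8384 genes, called 1 member, LOC119630586, where it called 5.68% of all genes. A fit of the 6 LAT51 and MO204 libraries also called 1, LOC101746950, with 4.84% of all genes called. The LAT51 and MO204 values did not overlap for 3 of the 6 members, which was the case for 13.8% of the 4275 genes past the level threshold.

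LOC119630586 came closest to the threshold, with a log2 fold change of 1.57 in LAT51 over MO204 (SE 0.441, 95% interval 0.58 to 2.55, adjusted p = 0.135 with edgeR). The 3 LAT51 libraries were all above the 3 MO204 libraries. With DESeq2 the adjusted p was 0.0309. LOC101746950 had the largest estimate of the members, 1.80 (SE 0.709, interval 0.22 to 3.39, adjusted p = 0.303 with edgeR), and 0.0651 when only the LAT51 and MO204 libraries entered the fit. LOC101740127 was the 1 member with a lower estimate in LAT51, -0.83 (SE 0.334, interval -1.58 to -0.09, adjusted p = 0.316 with edgeR), with no overlap between the strains. The other 3 members overlapped between LAT51 and MO204. Their log2 fold changes were 0.91 for LOC101742153 (interval -0.30 to 2.12), 0.66 for LOC119629869 (-0.32 to 1.64) and 0.69 for LOC101736607 (-0.13 to 1.51), with adjusted p between 0.499 and 0.659. The estimates for these 3 rest in part on single LAT51 larvae. Without LAT51-2 that of LOC101742153 was 0.06, without LAT51-4 that of LOC119629869 was 0.38, and without LAT51-1 that of LOC101736607 was 0.29. At these widths a difference of 2-fold between LAT51 and MO204 lies within the interval of each of the 6 members.

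**Figure D4:**
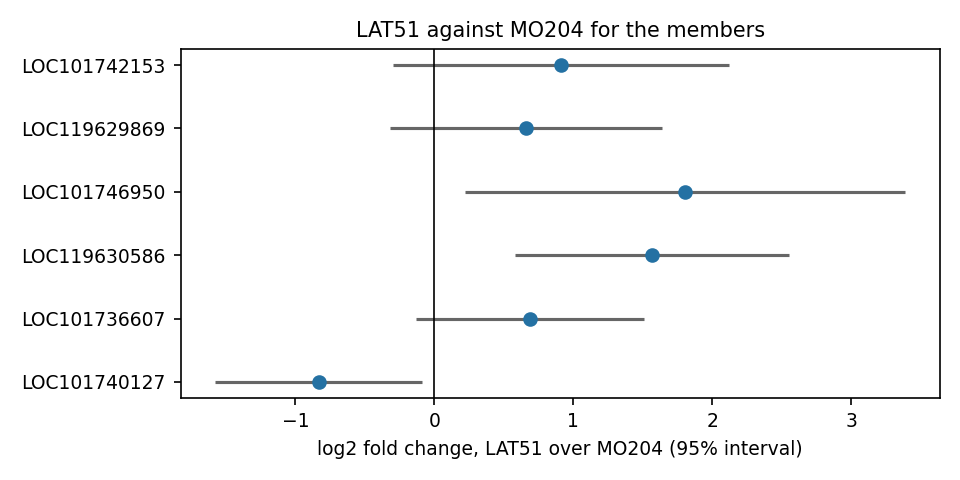
Log2 fold change of LAT51 over MO204 for the 6 members (points) with its 95% interval (lines), from edgeR's quasi-likelihood fit over 9 libraries. The estimates run from 1.80 for LOC101746950 to -0.83 for LOC101740127, and the intervals of 3 members include 0.

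The order of the strain means was thus LAT51, MO204, DMMMSU119 for 5 members and MO204, LAT51, DMMMSU119 for LOC101740127. With edgeR over all 9 libraries, the step between LAT51 and MO204 did not pass the adjusted threshold for any of them.

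The genes next to the members were then compared for DMMMSU119 over the mean of LAT51 and MO204, to show whether the low levels extended beyond the members. The gene table of ASM3026992v2 was used for this, and the 5 members it lists overlap no other listed gene. Taking the 2 nearest counted genes on each side gave 20 neighbours, of which 9 had enough reads to be tested. With edgeR, 1 of the 9 was lower, 1 was higher and 7 were not called, where 42.9% of all tested genes were called (22.8% higher and 20.1% lower). The log2 fold changes of the 9 lay between -0.73 and 0.61, with a median of -0.08. With library size alone all 9 were called lower, as were 70.7% of all genes, with a median of -1.49 beside the median of -1.40 over all genes.

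Next to LOC119630586, LOC119628391 had 14.5 ± 3.40 CPM in DMMMSU119, 23.9 ± 2.69 CPM in LAT51 and 20.1 ± 4.59 CPM in MO204 (SD, n = 3 each), a log2 fold change of -0.60 (SE 0.238, adjusted p = 0.0791 with edgeR). This call was lost with DESeq2's size factors. On the other side, LOC101737904, the second counted gene from the member, was higher, with 40.9 ± 15.4 CPM in DMMMSU119, 26.3 ± 2.42 CPM in LAT51 and 27.2 ± 1.92 CPM in MO204 (log2 fold change 0.61, SE 0.245, adjusted p = 0.0814 with edgeR). The 3 tested neighbours of LOC101736607 had log2 fold changes of 0.22 (LOC101740483), 0.03 (LOC733042) and -0.01 (LOC101736746). For LOC101740127 they were -0.14 (LOC101739862) and -0.20 (LOC101746092). The neighbours of LOC101742153 had at most 97 reads in any strain and none was tested, so the surroundings of the gene furthest apart could not be compared. LOC101746808, beside LOC101746950, had only 10, 65 and 26 reads in DMMMSU119, LAT51 and MO204.

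**Figure D5:**
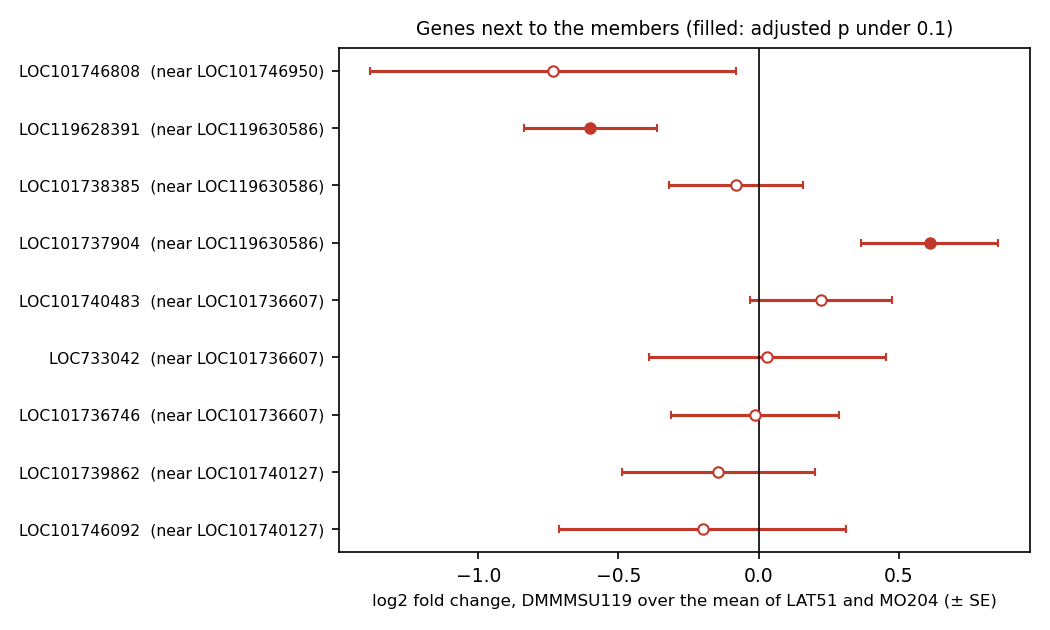
Log2 fold change (± SE) of DMMMSU119 over the mean of LAT51 and MO204 for the 9 tested genes among the nearest neighbours of the members, each labelled with its member. All lie between -0.73 and 0.61, and the 2 filled points, LOC119628391 and LOC101737904, were called in opposite directions.

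The lists of known genes held no member. For the cuticular protein genes of the trachea and epidermis list this was fixed beforehand, since the rule leaves out IDs starting with CP. CPR122, on that list, met both thresholds with a gap of 2.61. The lists show how far the listed genes differed in the same contrast. Genes were placed on the lists by symbol or synonym only, so each list covers a part of its system. BmGEMININ (gap 0.31), planned for the DNA replication list, is not among its 10 genes. Of the 10 DNA replication genes, 8 were lower in DMMMSU119 with edgeR and 0 higher, where 20.1% of all tested genes were lower and 22.8% higher, with a median log2 fold change of -1.51 beside -0.01 over all genes. The count was 7 with DESeq2's size factors, 10 with library size alone and 8 without DMMMSU-0. Pcna had 23.1 ± 14.8 CPM in DMMMSU119, 83.4 ± 12.6 CPM in LAT51 and 91.2 ± 12.8 CPM in MO204 (SD, n = 3 each), a log2 fold change of -1.92 (SE 0.380, adjusted p = 0.00650 with edgeR). On the scale of the rule, the gaps of the 10 genes lay between -1.15 (ORC5) and 1.19 (Rpa2), all below the 2.02 of the last member.

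Among 7 tested genes of the hormone response, 4 were higher and 3 lower in DMMMSU119, beside the same 22.8% and 20.1% of all genes. The ecdysone-response genes E74 (log2 fold change 2.46) and E75 (1.24) and both parts of the ecdysone receptor, EcR (1.27) and USP (1.28), were higher with TMM. Br-c (-1.52) and Hr3 (-1.97), of the same list, were lower with TMM, so the listed genes were split in direction. For Hr3 the difference was mainly from LAT51. It had 1.29 ± 0.579 CPM in DMMMSU119, 12.1 ± 4.65 CPM in LAT51 and 2.07 ± 1.17 CPM in MO204 (SD, n = 3 each). With library size alone only 1 of the 7 was higher, where 7.36% of all genes were. Kr-h1, the juvenile hormone response factor, fell by 3.48 on the log2 scale (SE 0.764, adjusted p = 0.00930 with edgeR), with 3 reads over the DMMMSU119 libraries, 100 over LAT51 and 80 over MO204. Its gap was 1.30 and its lowest value 3.63, so that it missed the rule on both counts. Of the silk gland transcription factors, dimm and sage were higher, again beside 22.8% of all genes, and SGF1 was not called. With library size alone, 0 of these 3 were higher and 1 was lower. Of the 6 silk protein genes, 5 were higher and Ser2 was not called, while with library size alone 5 were higher and 1 was lower, beside 7.36% and 70.7% of all genes.

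Among the markers of other tissues, 7 of 8 fat body genes were higher in DMMMSU119, where 22.8% of all tested genes were, and the exception, VG, had a log2 fold change of -2.48 (adjusted p = 0.150 with edgeR). For muscle, 2 of the 3 tested genes were higher, but 0 without DMMMSU-0. Of the trachea and epidermis list, almost all of it cuticular protein genes, 35 of 208 had enough reads, with 17 higher and 3 lower. Without DMMMSU-0 the counts were 7 and 3 of 37, a share of the higher ones near that of all genes, of which 20.7% were higher and 20.6% lower in that fit. The summed level of this list was high in each DMMMSU119 library, at 46084 (DMMMSU-0), 45222 (DMMMSU-2) and 36141 CPM (DMMMSU-4). It was 690 to 1449 CPM in LAT51 and 1745 to 4105 CPM in MO204. Such a sum can rest on few genes: CPH43, of this list, reached a deposited value of 18.27 in DMMMSU119. Both hemocyte genes were not called, and of the neuron genes Elav was lower (-0.87, adjusted p = 0.0988 with edgeR), a call that was lost without DMMMSU-0 and with DESeq2's size factors. The 4 gut aminopeptidase genes were not tested, and 3 of them had no read in MO204. The summed level of the fat body genes was higher in every DMMMSU119 library than in any LAT51 or MO204 library, although VG was not higher. These markers and the strain cannot be told apart here, and whether they bear on the members was not tested.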

How the data were processed

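Per the labels and the study's methods, TruSeq Stranded libraries were trimmed (fastp 0.20.0 and Trimmomatic 0.39), aligned with HISAT2 2.1.0 and counted per gene with featureCounts 1.4.6-p5. The strand setting and the annotation of the counts are not given in the sources used here. The deposited counts are whole reads without normalization. The deposited log2 values were computed by the authors as log2(count / DESeq2 size factor + 1), and differed from a recomputation by at most 4.97e-14.

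The members and the gene lists were chosen with earlier results of these data known. Genes were tested with edgeR 4.0.16 in R 4.3.3 (filterByExpr by strain, TMM, quasi-likelihood, 1 mean per strain over 9 libraries, Benjamini-Hochberg over 7610 genes), called at an adjusted p under 0.1, and SE was taken from the F statistic. The rule for named genes was: members by gap, level, DMMMSU119 range and LAT51 vs. MO204 test (all 6), the 3 genes just outside each threshold, and the silk protein list. Neighbours and other listed genes were named after their values were seen. Alternatives were DESeq2 1.42.0, limma 3.58.1, other scalings, filters and thresholds, a block for the replicate number and leave-one-out fits. Of 16674 IDs, 14501 matched the gene table by symbol. No coordinates are given, since it is another assembly than the authors'. Replicate libraries had chi-square values of 35.5 to 149 per degree of freedom, so none repeated another. Replicate numbers name different larvae and do not pair them. Promoter and protein sequences were not analysed here.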

Additional observations from a re-analysis of the deposited data

How the results depend on the processing

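The number of members was 5 with TMM scaling, which lost LOC101740127, 123 with library size alone, 15 at a gap of 1.5, 1 at a gap of 3, 7 at a level of 4 and 4 at a level of 6. It was 6 to 31 when 1 library was left out, with 31 without DMMMSU-0. In LAT51 vs. MO204, edgeR's 234 called genes became 476 with DESeq2's Wald test, 99 without a filter on low counts, 29 with the replicate block and 78 to 307 with 1 library left out. The count of members called, 0, became 1 with DESeq2's Wald test and 1 in the fit of the 6 LAT51 and MO204 libraries, and stayed at 0 with the replicate block and with any 1 library left out. Each member kept the sign of its LAT51 vs. MO204 fold change in all 16 alternatives, although that of LOC101742153 (0.91) was 0.06 without LAT51-2. In DMMMSU119 vs. the mean of the others, 3264 called genes (1736 higher, 1528 lower) became 5941 with library size alone (560 higher, 5381 lower), 1647 with the replicate block and 2261 to 3416 with 1 library left out. The 52 listed genes called became 29 with the replicate block and 39 to 56 with 1 library left out. The cause of these changes was not tested. Deviations of the 5 same-numbered pairs of libraries correlated at -0.15 to 0.23, and the replicate numbers were not taken as pairs. Sequences of promoters were not at hand, so the planned motif shares were not run. The low reads of the members in DMMMSU119, 1 to 18 per library except for LOC101746950, limit the precision of their folds.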
